A study of Xenopus laevis with 6 samples.

Results

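The genes described here build and maintain mitochondria: proteins of the mitochondrial ribosome, of the import machineries of both mitochondrial membranes, of mitochondrial DNA replication, transcription and translation, of fusion, fission and transport, prohibitins and matrix proteases, porins of the outer membrane, and nuclear regulators of mitochondrial genes. They were chosen by the beginning of their gene symbols in a table of read counts named v9.1. The rule uses no measured value, but it was set with earlier results of these data known. It gave 106 of the 10364 gene models and 81 of the 6808 symbols in v9.1. Of the 81 symbols, 56 had 1 gene model and 25 had 2, as can be found in Xenopus laevis, an allotetraploid frog whose 2 subgenomes each can keep a copy (homeolog) of a gene. The table does not say for these gene models which copy, L or S, each one is, so gene models of a symbol are told apart by their identifiers.

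RNA came from primordial germ cells (PGCs), the embryonic precursors of eggs and sperm, and from endoderm cells of the same age, both taken from Xenopus laevis embryos at stage 12 to 14; the labels state no genotype, strain or treatment for either group. The study asked which RNAs are enriched in PGCs over the endoderm cells around them. Each group held 3 libraries read as 100-bp paired ends, and per the labels every RNA sample was depleted of ribosomal RNA and split into 3 aliquots of 1 ng for library preparation. Nothing in the labels tells whether replicates were collected separately or are such aliquots of a single sample, and the spread behind every p-value may therefore be technical. Fewer cells of a type and less RNA per cell cannot be told apart in such bulk libraries.

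Nearly all mitochondrial proteins are encoded in the nucleus, made in the cytosol and carried through the TOM complex of the outer membrane and the TIM complexes of the inner membrane. The mitochondrial DNA encodes a small set of respiratory chain proteins, which are made inside the organelle by the mitochondrial ribosome. Xenopus germ plasm, the cytoplasm that PGCs inherit from the vegetal pole of the egg, is rich in mitochondria that gather in the mitochondrial cloud of the young oocyte. The symbol ppargc1a, which appears below, stands for a transcriptional coactivator and has nothing to do with the abbreviation PGC used for the cells.

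Libraries held 9.94 to 28.3 M counts in endoderm and 14.5 to 16.9 M in PGCs. Levels are given in CPM, counts per M of a library size corrected for composition by the TMM method, always in the order of replicates 1, 2 and 3. Changes are log2 fold changes of PGC over endoderm ± standard error. A gene model was called when its p in the quasi-likelihood test of edgeR, adjusted by Benjamini-Hochberg over all 10364 gene models, was under 0.05. All adjusted p below are from that test unless another is named. The labels were checked with marker genes: all 6 gene models of ddx25, dazl, nanos1, grip2 and dnd1 rose in PGCs, with log2 fold changes of 5.77 to 8.27, and of 7 gene models of sox17a, gata4, gata5 and gata6 5 fell while both of gata4 rose.

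Most genes for building mitochondria did not differ detectably between PGCs and endoderm. Of the 106 gene models, 4 rose in PGCs (timm8b, polg, mrps17 and clpx) and 7 fell (mrpl44, mrpl14, ppargc1a, rhot2, tomm70a, mrps18b and gabpa). Those 11 make up 10.4% of the members, whereas 29.3% of all gene models were called, 12.6% as higher and 16.8% as lower in PGCs. The same edgeR test gave an unadjusted p under 0.05 to 22 members and to 4012 of all 10364 gene models. The PGC and endoderm libraries did not overlap in CPM for 34 of 106 members, 21 above and 13 below, against 48.2% of all gene models. The median log2 fold change was 0.24 over the members and 0.07 over all gene models, and -0.08 and 0.01 with offsets that follow expression level. When libraries were scaled by total counts the medians were 0.55 and 0.39, and 13 members were higher and 6 lower, against 1932 higher and 1117 lower among all gene models (1301 and 1739 with TMM).

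**Figure D1:**
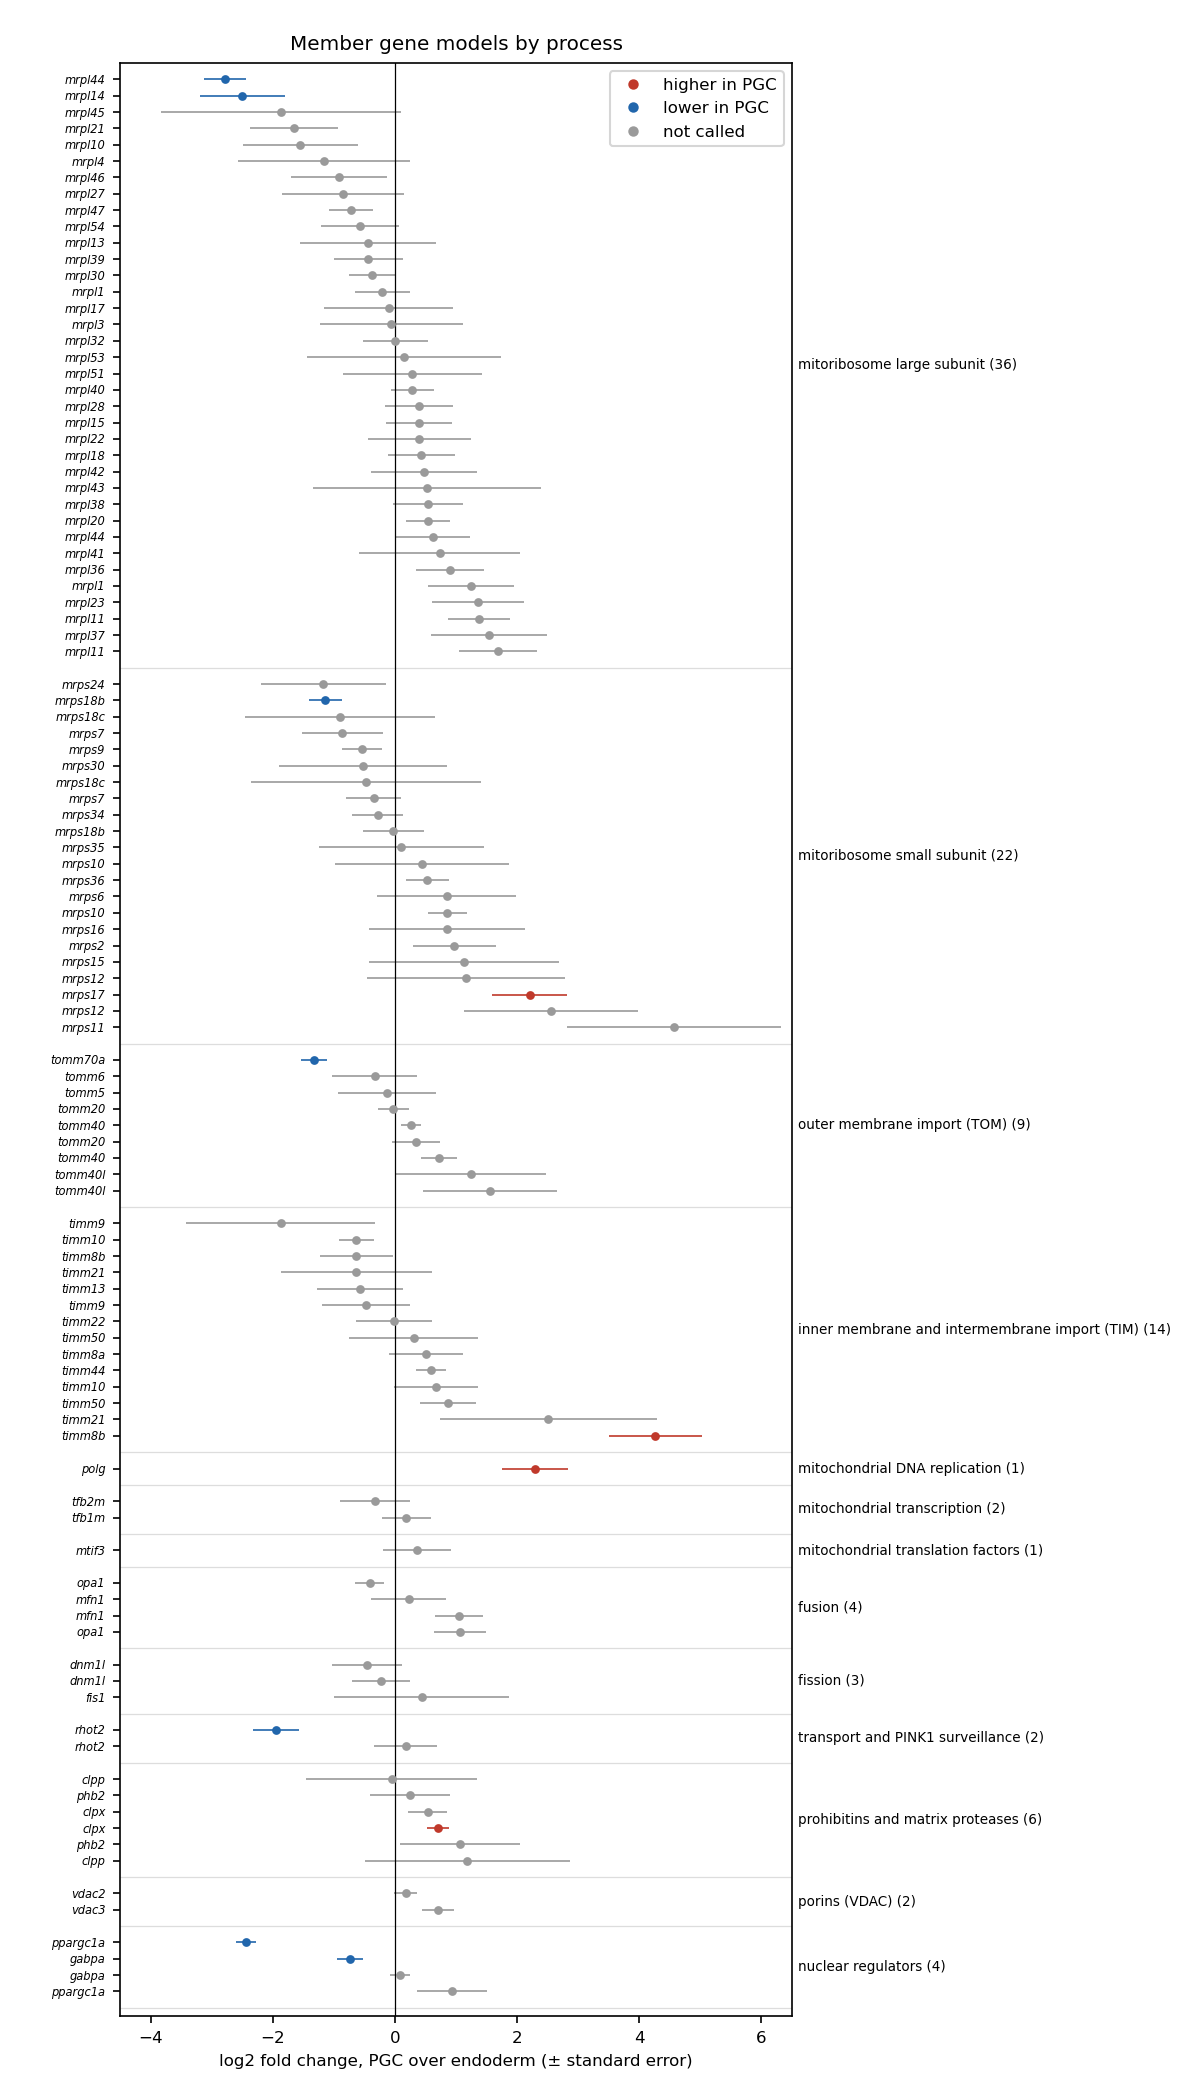
Log2 fold change of PGC over endoderm (horizontal axis, bars are standard errors) for each of the 106 gene models, 1 row each, grouped by process with the number of gene models in parentheses. The 4 red points lie above 0 and the 7 blue points below it, and the other 95 are grey.

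The members had few counts behind them, with a median of 17.0 CPM (not corrected for transcript length) over the 6 libraries against 29.1 CPM for all gene models, and their median standard error was 0.62 against 0.43. All gene models were split into 3 classes of equal size by mean level. In the lowest class, up to 15.6 CPM, 1 of 49 members was called (2.04%), where 7.67% of all gene models of such a level were. In the middle class, up to 54.1 CPM, it was 4 of 43 (9.30% against 24.0%), and in the highest class 6 of 14 (42.9% against 56.4%). A count of 0 in at least 1 library was found for 14 members and for 1131 of all 10364 gene models. Endoderm replicate 2 had 8 members at 0 (7.55%, against 5.82% of all gene models) and endoderm replicate 3 had 6 (5.66% against 4.70%). PGC replicates 2 and 3 had 2 and 1 (1.89% and 0.943%, against 1.02% and 1.40%), while the replicates numbered 1 had none. The greater number of zeros in these 2 endoderm libraries was thus found over all gene models. A difference that was not called is not shown to be absent.

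**Figure D2:**
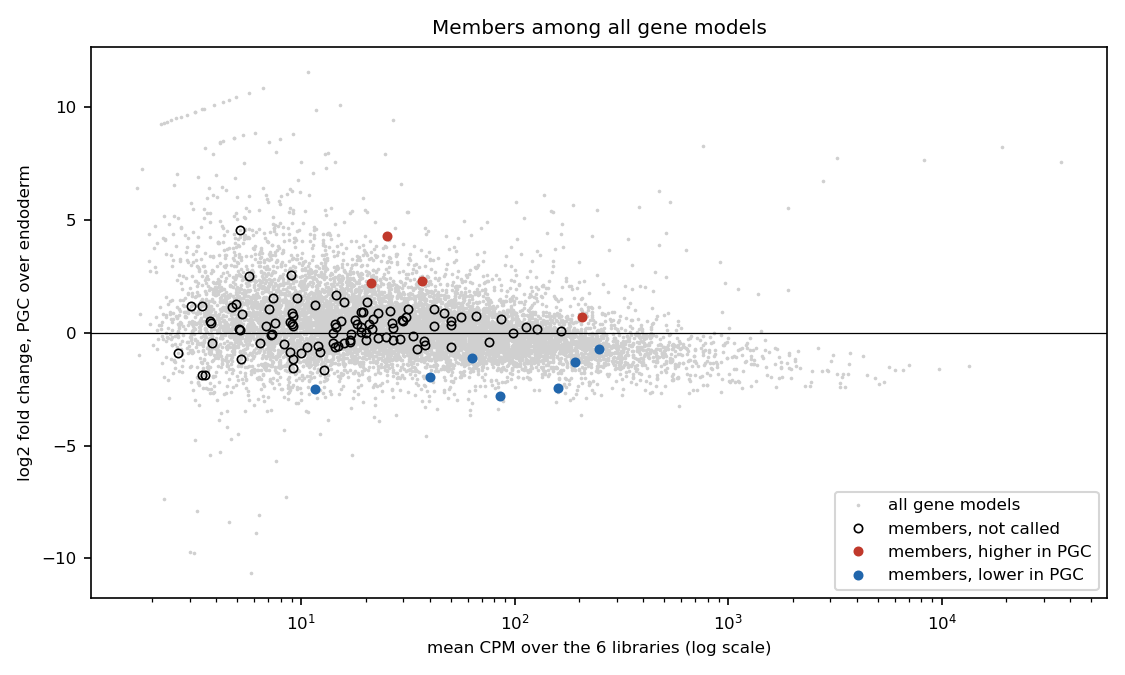
Log2 fold change of PGC over endoderm (vertical axis) against mean level over the 6 libraries in CPM (horizontal log axis) for the members, over all gene models in the background. Of the 49 members up to 15.6 CPM 1 was called, and of the 14 above 54.1 CPM 6 were.

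The mitochondrial ribosome was the largest group, with 58 gene models. Of the 36 gene models of the large subunit, 0 were higher and 2 were lower in PGCs (5.56% called). In the edgeR test 5 had an unadjusted p under 0.05, against 4012 of all 10364 gene models. The median log2 fold change of the large subunit was 0.22, with a range of -2.79 to 1.69. mrpl44 (Xelaev18027903m), a large subunit protein with an RNase III-like fold, stood at 154, 172 and 120 CPM in endoderm and at 21.8, 31.8 and 11.1 CPM in PGCs. All PGC libraries lay far below all endoderm libraries, and the log2 fold change was -2.79 ± 0.34 (edgeR adjusted p = 5.82e-05). mrpl14 (Xelaev18026418m), a protein of the large subunit core, stood at 20.1, 19.3 and 19.4 CPM in endoderm and 5.15, 2.86 and 2.40 CPM in PGCs. The endoderm values were nearly equal and none of the PGC values reached them, with a log2 fold change of -2.50 ± 0.69 (edgeR adjusted p = 0.0168). Without endoderm replicate 1 the edgeR adjusted p was 0.0714 for mrpl14 (0.00153 to 0.0714 over 14 alternatives, of which 1 was the DESeq2 Wald test and the others edgeR fits). The gene model of the large subunit with the highest mean after mrpl44 was mrpl40 (Xelaev18010538m), at 30.8, 44.7 and 37.3 CPM in endoderm and 50.9, 58.9 and 27.8 CPM in PGCs. Its groups overlapped, and its log2 fold change was 0.29 ± 0.35.

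Of the 22 gene models of the small subunit 1 was higher and 1 lower (9.09% called, against 29.3% of all gene models). Their median log2 fold change was 0.27, with a range of -1.17 to 4.57. With offsets that follow expression level the medians of the large and small subunits were -0.24 and -0.18. mrps17 (Xelaev18012773m), a small subunit protein with relatives in bacterial ribosomes, rose from 13.9, 6.07 and 2.50 CPM in endoderm to 48.0, 23.4 and 33.6 CPM in PGCs. Every PGC library lay above the highest endoderm library, and the log2 fold change was 2.21 ± 0.62 (edgeR adjusted p = 0.0172). Without PGC replicate 1 the edgeR adjusted p was 0.0906 (0.00187 to 0.0906 over 14 alternatives, the DESeq2 Wald test among them). mrps18b (Xelaev18039232m), 1 of several S18 proteins of the mitochondrial small subunit, fell from 80.1, 105 and 73.9 CPM to 29.2, 47.9 and 40.4 CPM. Its highest PGC library lay below its lowest endoderm library, and the log2 fold change was -1.14 ± 0.27 (edgeR adjusted p = 0.00703). mrps10 (Xelaev18041327m), which had the highest mean CPM of the subunit after mrps18b, stood at 34.8, 27.3 and 37.4 CPM in endoderm and 73.8, 39.0 and 67.1 CPM in PGCs. Its groups did not overlap, but the log2 fold change of 0.86 ± 0.32 was not called (edgeR adjusted p = 0.0637).

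Further ribosomal gene models close to the threshold were chosen after their values were seen. Both gene models of mrpl11, a protein of the large subunit stalk base, were above endoderm in every PGC library without being called, with log2 fold changes of 1.38 ± 0.51 (Xelaev18022288m, edgeR adjusted p = 0.0613) and 1.69 ± 0.64 (Xelaev18024189m, edgeR adjusted p = 0.0671). mrps11 (Xelaev18018368m), a small subunit protein, had 30, 0 and 0 counts in endoderm against 508 counts over the PGC libraries, so that all its endoderm counts came from endoderm replicate 1. Its fitted log2 fold change of 4.57 ± 1.75 was not called (edgeR adjusted p = 0.0712; 0.00402 without endoderm replicate 1). That fit leaves out the only endoderm library with mrps11 counts, so no rise is concluded from it. Over all 6 libraries the fitted ratio of PGC over endoderm was 23.7. The smallest total kept, 150 counts over the 6 libraries, was reached by mrps11 only with its PGC counts. In the RefSeq annotation of Xenopus_laevis_v10.1 the mrps11 and mrpl46 genes overlap on chromosome 3L and do not on 3S. Whether counting used strand is not given in the sources used here. mrpl46 (Xelaev18018369m), a large subunit protein, had a log2 fold change of -0.92 ± 0.78.

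Protein import had 23 gene models, of which 1 rose and 1 fell (8.70% called, against 29.3% of all gene models). In the TOM complex of the outer membrane, 0 of 9 gene models were higher and 1 was lower. tomm70a (Xelaev18014219m), the receptor that hands carrier precursors with their chaperones to the pore, stood at 213, 264 and 343 CPM in endoderm and 105, 138 and 84.3 CPM in PGCs. The groups did not overlap, and the log2 fold change was -1.32 ± 0.22 (edgeR adjusted p = 0.000603). The gene models of the pore protein tomm40 were both above endoderm in every PGC library without being called. Xelaev18036023m stood at 65.1, 30.2 and 53.4 CPM in endoderm and 91.4, 70.6 and 82.5 CPM in PGCs, a log2 fold change of 0.72 ± 0.29 (edgeR adjusted p = 0.0903), and Xelaev18037760m had a log2 fold change of 0.26 ± 0.17. tomm20, the receptor for presequences, had log2 fold changes of 0.35 ± 0.39 and -0.02 ± 0.26 in its gene models. The small TOM subunits tomm5 and tomm6 stood at -0.13 ± 0.80 and -0.33 ± 0.70, and the tomm40 relative tomm40l at 1.55 ± 1.10 and 1.25 ± 1.23, all with wide errors.

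In the TIM complexes and the intermembrane space 1 of 14 gene models rose and 0 fell (7.14% called, against 29.3% of all gene models). timm8b (Xelaev18037434m), a small chaperone that escorts membrane proteins across the intermembrane space, stood at 5.40, 1.45 and 0.340 CPM in endoderm and 37.2, 53.7 and 53.6 CPM in PGCs. The PGC libraries lay far above all endoderm libraries, which themselves spread widely. Its log2 fold change of 4.27 ± 0.76 (edgeR adjusted p = 0.00104) was the largest among called members, and was 3.81 to 5.70 when 1 library was left out, with 5.70 without endoderm replicate 1. The TIM members with the highest mean CPM were timm44, which tethers the matrix Hsp70 import motor, and a gene model of timm10, another small chaperone. timm44 (Xelaev18009615m) stood at 56.2, 91.9 and 58.6 CPM in endoderm and 116, 90.1 and 105 CPM in PGCs, with a log2 fold change of 0.59 ± 0.24 that was not called (edgeR adjusted p = 0.0871). timm10 (Xelaev18009801m) stood at 57.7, 76.1 and 50.01 CPM in endoderm and 46.4, 40.2 and 31.8 CPM in PGCs, a log2 fold change of -0.63 ± 0.29 (edgeR adjusted p = 0.124). timm21 (Xelaev18031787m), a subunit of the presequence translocase chosen after its values were seen, had 129, 0 and 0 counts in endoderm against 490 over the PGC libraries. Its log2 fold change was 2.51 ± 1.78 (edgeR adjusted p = 0.332). Endoderm replicate 1 stood at 5.015 CPM, above PGC replicate 1 at 4.827 CPM, so the groups overlapped. The smallest total kept, 150 counts over the 6 libraries, was reached by timm21 only with its PGC counts.

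**Figure D3:**
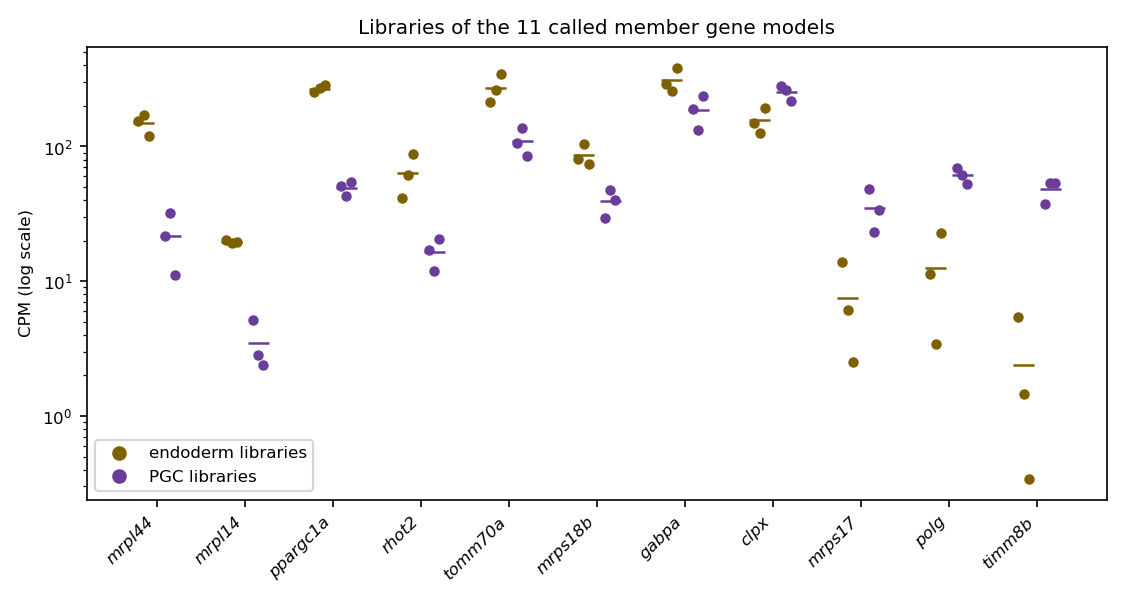
Level in CPM (vertical log axis) in each endoderm and PGC library for the 11 called members, named on the horizontal axis. For each of the 11 the 3 PGC libraries lie on 1 side of the 3 endoderm libraries, as for timm8b with 37.2 to 53.7 CPM against 0.340 to 5.40 CPM.

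The gene model for the enzyme that copies mitochondrial DNA rose. polg (Xelaev18018354m), the catalytic subunit of the mitochondrial DNA polymerase, stood at 11.3, 3.45 and 22.9 CPM in endoderm and 68.8, 61.8 and 52.4 CPM in PGCs. Endoderm libraries differed among themselves, but all lay below the lowest PGC library. The log2 fold change was 2.30 ± 0.55 (edgeR adjusted p = 0.00707), between 1.89 without endoderm replicate 2 and 3.05 without endoderm replicate 3. The factors of transcription and translation did not pass the test. tfb1m (Xelaev18043380m), a methyltransferase of the small ribosomal RNA, had a log2 fold change of 0.19 ± 0.40 and tfb2m (Xelaev18026793m), a transcription initiation factor, of -0.33 ± 0.57. mtif3 (Xelaev18013763m), an initiation factor of mitochondrial translation, had 0.36 ± 0.55.

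Of the 7 gene models for fusion and fission, 0 were called. In the edgeR test 2 had an unadjusted p under 0.05, against 4012 of all 10364 gene models. mfn1 (Xelaev18027561m), a GTPase that fuses outer membranes, stood at 44.4, 14.1 and 23.4 CPM in endoderm and 61.4, 49.99 and 58.8 CPM in PGCs. All PGC libraries lay above endoderm, and the log2 fold change was 1.05 ± 0.40 (edgeR adjusted p = 0.0669). It was 0.23 ± 0.62 in the other gene model (Xelaev18029689m). opa1, the GTPase that fuses inner membranes, had 1 gene model at 24.4, 26.6 and 10.1 CPM in endoderm and 41.7, 53.0 and 33.4 CPM in PGCs (Xelaev18029670m, 1.06 ± 0.42, edgeR adjusted p = 0.0806). Its other gene model, Xelaev18027532m, stood at 109, 87.3 and 63.4 CPM in endoderm and 65.9, 61.1 and 67.6 CPM in PGCs, with overlapping groups and a log2 fold change of -0.42 ± 0.24 (edgeR adjusted p = 0.227). For fission, the dynamin-related GTPase dnm1l had log2 fold changes of -0.46 ± 0.57 and -0.23 ± 0.47, and the outer membrane adaptor fis1 had 0.44 ± 1.43.

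rhot2, a GTPase of the outer membrane that links mitochondria to motor proteins, fell in 1 of its gene models. Xelaev18047823m stood at 41.8, 61.3 and 88.5 CPM in endoderm and 17.2, 11.9 and 20.5 CPM in PGCs. The groups did not overlap, and the log2 fold change was -1.95 ± 0.37 (edgeR adjusted p = 0.00178). The other, Xelaev18045593m, overlapped between groups and had a log2 fold change of 0.18 ± 0.51.

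Among prohibitins and matrix proteases 1 of 6 gene models rose (16.7% called, against 29.3% of all gene models). clpx (Xelaev18018424m), the unfoldase that feeds the matrix protease ClpP, stood at 149, 125 and 194 CPM in endoderm and 282, 263 and 219 CPM in PGCs. Its lowest PGC library lay above its highest endoderm library, and the log2 fold change was 0.71 ± 0.18 (edgeR adjusted p = 0.0108). The other clpx gene model (Xelaev18020446m) had 0.53 ± 0.33. The peptidase clpp had log2 fold changes of -0.05 ± 1.40 and 1.19 ± 1.68 at under 10 CPM in both groups, and phb2, a ring-forming scaffold of the inner membrane, had 1.07 ± 0.99 and 0.25 ± 0.65. The porins, channels for metabolites through the outer membrane, had 0 of 2 gene models called. vdac3 (Xelaev18018793m) stood at 44.9, 34.9 and 48.0 CPM in endoderm and 76.8, 68.4 and 62.9 CPM in PGCs, with no overlap and a log2 fold change of 0.71 ± 0.26 (edgeR adjusted p = 0.0562). vdac2 (Xelaev18000562m) overlapped, with a log2 fold change of 0.17 ± 0.19.

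Of the 4 gene models of nuclear regulators 2 fell, where 16.8% of all gene models did. Both that fell stood in the highest level class, above 54.1 CPM. In that class 42.1% of all gene models were lower in PGCs, with a median log2 fold change of -0.40. A ppargc1a gene model had the smallest adjusted p of all members. ppargc1a, a coactivator that raises transcription of mitochondrial genes, stood at 252, 270 and 284 CPM in endoderm and 50.8, 43.0 and 54.9 CPM in PGCs for Xelaev18008963m. The libraries of each group were close together and the groups far apart, with a log2 fold change of -2.44 ± 0.17 (edgeR adjusted p = 3.57e-07) that ranged from -2.52 to -2.08 over 14 alternatives. The other ppargc1a gene model, Xelaev18005173m, stood at 14.8, 20.3 and 4.20 CPM in endoderm and 25.5, 22.9 and 26.9 CPM in PGCs, with a log2 fold change of 0.93 ± 0.57 that was not called. gabpa, the DNA-binding subunit of an ETS factor that acts on promoters of respiratory chain genes, stood at 291, 258 and 385 CPM in endoderm and 189, 133 and 236 CPM in PGCs for Xelaev18011534m, without overlap. Its log2 fold change was -0.74 ± 0.21 (edgeR adjusted p = 0.0188). It was no longer called under total-count scaling (-0.42), under offsets that follow expression level (-0.19) or without any 1 of endoderm replicates 1 and 3 and PGC replicates 1 and 2 (-0.95 to -0.53 when 1 library was left out), and the adjusted p ranged from 0.00284 to 0.581 over 14 alternatives, which include the DESeq2 Wald test beside edgeR. The other gabpa gene model (Xelaev18014266m) had a log2 fold change of 0.08 ± 0.16.

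In 3 symbols, timm8b, mrpl44 and ppargc1a, the gene models differed from each other in their PGC over endoderm ratio. For the 25 members with 2 gene models, the ratio of PGC over endoderm was compared between both by an edgeR quasi-likelihood test, with library as a block and adjustment over all 3512 symbols with 2 gene models. It called 3 of 25 member pairs (12%), and 9.74% of all pairs. In that edgeR test 7 of the 25 member pairs had an unadjusted p under 0.05, as had 878 of all 3512 pairs. Differences are those fitted by that test, the second minus the first gene model in order of identifier. They need not equal the subtraction of both log2 fold changes. For mrps10 the fit gave -0.30 for the second minus the first gene model. Their log2 fold changes were 0.44 (Xelaev18039530m) and 0.86 (Xelaev18041327m). For timm8b the fitted difference was 5.52 ± 1.33 on the log2 scale (edgeR adjusted p = 0.0341). Its other gene model, Xelaev18035506m, stood at 11.7, 15.6 and 25.2 CPM in endoderm and 14.4, 6.75 and 12.6 CPM in PGCs, and had a log2 fold change of -0.63 ± 0.60. For mrpl44 the difference was 3.62 ± 0.67 (edgeR adjusted p = 0.0112), its other gene model, Xelaev18029945m, standing at 16.8, 28.3 and 6.01 CPM in endoderm and 12.8, 39.2 and 26.9 CPM in PGCs (0.62 ± 0.60). The RefSeq annotation of Xenopus_laevis_v10.1 held an S gene and no L gene under the symbol mrpl44, so its gene models are not shown to be an L and S pair. For ppargc1a the difference was -3.58 ± 0.57 (edgeR adjusted p = 0.00643), with Xelaev18008963m as the second gene model.

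The ppargc1a pair kept its call without any 1 library. The mrpl44 pair lost it without PGC replicate 2 (edgeR adjusted p = 0.0543), and the timm8b pair lost it without endoderm replicate 2 or any 1 PGC library (edgeR adjusted p of 0.066 to 0.129). The pairs of rhot2 (-2.001 ± 0.75, edgeR adjusted p = 0.135), opa1 (1.54 ± 0.45, 0.0651), gabpa (0.82 ± 0.23, 0.0589) and mrps18b (1.25 ± 0.53, 0.182) were not called. A called and an uncalled gene model of rhot2, gabpa and mrps18b are therefore not shown to differ. Both gene models had log2 fold changes of the same sign in 14 of the 25 pairs, and in 2364 of all 3512. The split between near-identical copies is uncertain, since the treatment of reads that match both is not given in the sources used here. When the gene models of a symbol were summed, 8 of 81 symbols were higher and 6 lower, against 34.8% of all symbols called. Summed counts added mrpl11 (1.51 ± 0.38), mrps10 (0.80 ± 0.29) and tomm40 (0.44 ± 0.15) to the higher symbols, and gabpa was not called. vdac3, which has 1 gene model and so nothing to sum, was also called in that fit (0.71 ± 0.25, edgeR adjusted p = 0.0433).

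**Figure D4:**
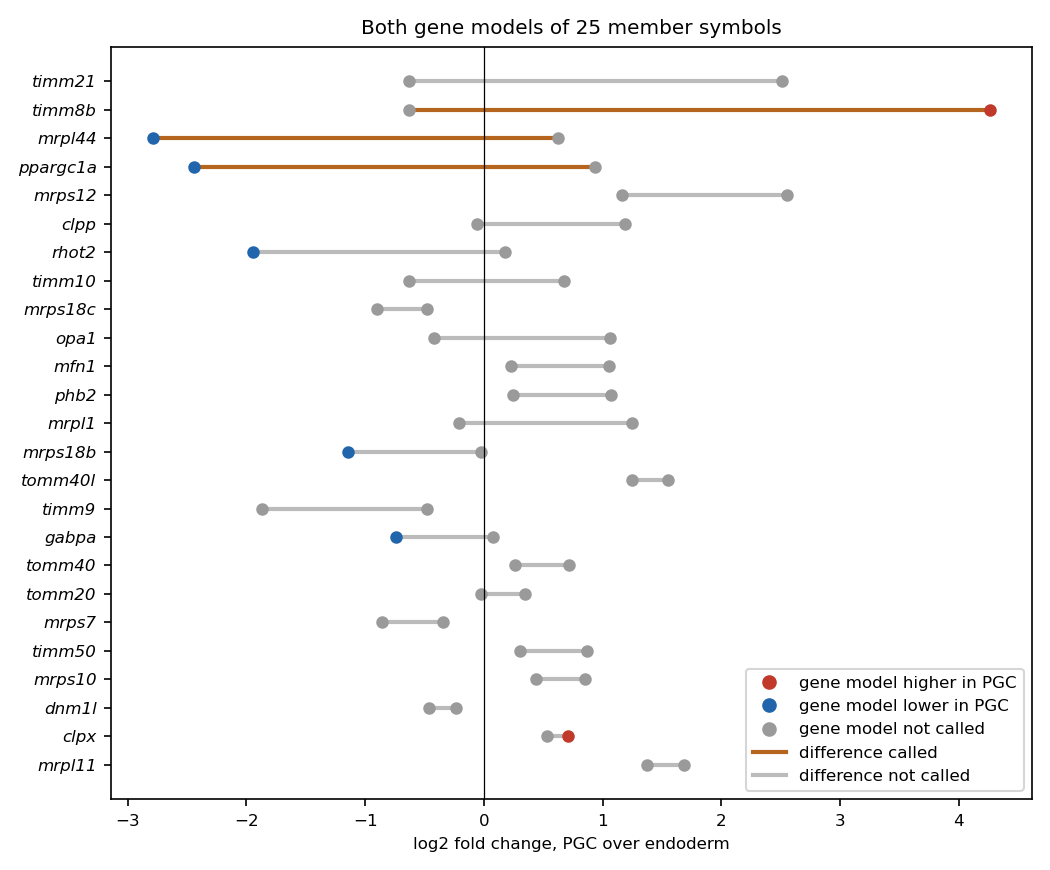
Log2 fold change of PGC over endoderm (horizontal axis) for both gene models of each of the 25 member symbols that had 2, as points joined by a line and ordered by the size of the fitted difference; point colour gives the call of a gene model and line colour that of the difference. The 3 symbols whose difference was called are timm8b (4.27 and -0.63), mrpl44 (0.62 and -2.79) and ppargc1a (0.93 and -2.44).

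A table named v7.1 gave counts of the same libraries on another gene set and is no independent measurement. It held 86 gene models chosen by the same symbol rule, and 6 of these rose and 3 fell in PGCs (10.5% called, against 28.9% of its gene models). It gave values for 24 symbols that v9.1 did not give, in 27 gene models, of which 3 were called. nrf1 (Xelaev15000986m.g), a transcription factor of nuclear genes for mitochondrial proteins, stood at 35.4, 27.5 and 37.6 CPM in endoderm and 141, 87.4 and 104 CPM in PGCs. Its groups did not overlap, and its log2 fold change of 1.72 ± 0.27 (edgeR adjusted p = 0.000315) kept its call in 11 alternatives. vdac1 (Xelaev15019164m.g), another porin, fell from 99.9, 79.8 and 104 CPM to 46.4, 58.3 and 40.6 CPM (-0.97 ± 0.26, edgeR adjusted p = 0.0117), a call lost without endoderm replicate 1 or 3. mfn2 (Xelaev15001874m.g), the relative of mfn1, rose from 16.6, 6.53 and 15.5 CPM to 28.6, 29.7 and 57.3 CPM (1.58 ± 0.51, edgeR adjusted p = 0.0319). That call was lost under offsets that follow expression level and without endoderm replicate 2, PGC replicate 2 or PGC replicate 3.

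In v7.1 polg (Xelaev15070746m.g) was also higher in PGCs, with a log2 fold change of 2.34 ± 0.54 (edgeR adjusted p = 0.00473). The other core factors of the mitochondrial genome named here were not called in v7.1. tfam (Xelaev15066287m.g), which packages mitochondrial DNA and starts its transcription, stood at 43.9, 11.5 and 34.2 CPM in endoderm and 55.8, 59.8 and 39.7 CPM in PGCs, a log2 fold change of 0.79 ± 0.45 (edgeR adjusted p = 0.218). polrmt (Xelaev15050321m.g), the mitochondrial RNA polymerase, had 0.34 ± 0.32. ssbp1, which binds single-stranded mitochondrial DNA, had 0.49 ± 0.82 and -0.91 ± 0.96 in its gene models, and rhot1 (Xelaev15041128m.g), the relative of rhot2, had 1.27 ± 0.52 (edgeR adjusted p = 0.084). ppargc1a had 2 gene models in v7.1 and both fell, by 1.69 ± 0.40 and 2.65 ± 0.38 on the log2 scale. Their identifiers are consecutive (Xelaev15051047m.g and Xelaev15051048m.g). Whether they are 2 copies or parts of 1 gene is not given in the sources used here. They do not show that both v9.1 gene models fell, as Xelaev18005173m had 0.93 ± 0.57. The tomm70a gene model of v7.1 (Xelaev15003138m.g) stood at only 21.2, 20.2 and 15.7 CPM in endoderm and 8.39, 10.3 and 0 CPM in PGCs and was not called (-1.61 ± 1.17, edgeR adjusted p = 0.355).

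Other genes of the same processes, listed by name, were measured in 138 gene models of 98 of 184 symbols. In PGCs 16 rose and 11 fell (19.6% called, against 29.3% of all gene models), with a median log2 fold change of 0.42 against 0.07. With offsets that follow expression level 11 were higher and 11 lower, with a median of 0.21 against 0.01. The lists had a median level of 18.5 CPM. Among all gene models, the lowest and middle level classes had median log2 fold changes of 0.56 and 0.21. Among genes for dynamics, transport and mitophagy 5 rose and 5 fell of 27. mief2 (Xelaev18047791m), a receptor that recruits the fission GTPase to the outer membrane, rose from 29.4 ± 5.63 to 172 ± 31.5 CPM (SD, n = 3), a log2 fold change of 2.55 ± 0.23 (edgeR adjusted p = 3.93e-06). optn (Xelaev18020929m), an adaptor of mitophagy, rose by 3.40 ± 0.68. fam73a (Xelaev18022918m), an outer membrane protein known in mammals as mitoguardin, rose by 4.86 ± 1.59 with 38, 0 and 0 counts in endoderm. It lost its call under offsets that follow expression level and without endoderm replicate 3 or any 1 PGC library. The total of fam73a reached 150 counts over the 6 libraries, the smallest kept, only with its PGC counts. The 5 that fell, named here after their values were seen, were fundc1 (Xelaev18012420m, -1.51 ± 0.36) and bnip3 (Xelaev18036859m, -1.45 ± 0.31), both mitophagy receptors, mtfr1l (Xelaev18015255m, -1.40 ± 0.20), fam73b (Xelaev18041651m, -1.23 ± 0.32), the relative of fam73a, and trak2 (Xelaev18044914m, -1.18 ± 0.22), an adaptor of mitochondrial transport. The call of fam73b was lost under total-count scaling and without endoderm replicate 1. Several of these symbols had another gene model that was not called. Those had log2 fold changes of -0.39 ± 0.24 (fundc1), -0.60 ± 0.37 (bnip3), 0.09 ± 0.45 (mtfr1l), -0.10 ± 0.42 (fam73b) and 1.60 ± 1.24 (mief2). The other gene model of optn was called too (1.75 ± 0.53).

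For import and folding 2 rose and 1 fell of 27. letm1 (Xelaev18008868m), an inner membrane protein of ion exchange, rose by 1.84 ± 0.37, from a mean of 12.4 to 44.5 CPM. Its other gene model, Xelaev18005032m, had means of 176 CPM in endoderm and 128 CPM in PGCs and was not called (-0.46 ± 0.22). mtx2 (Xelaev18044733m), a metaxin of the outer membrane, rose by 2.08 ± 0.72. grpel2 (Xelaev18017222m), a nucleotide exchange factor of matrix Hsp70, fell by 0.95 ± 0.19. Uncalled were the other gene models of mtx2 (2.66 ± 1.49) and grpel2 (0.89 ± 0.51). Of 7 for other proteases and membrane shape only spg7 (Xelaev18003574m), a subunit of the m-AAA protease, was called, with a rise of 1.55 ± 0.49. For mitochondrial DNA upkeep 2 rose and 1 fell of 15. pnpt1 (Xelaev18028835m), an RNA-degrading phosphorylase, rose by 1.75 ± 0.39, atad3a (Xelaev18037514m), an inner membrane ATPase associated with nucleoids, by 1.17 ± 0.41, and lig3 (Xelaev18043734m), the DNA ligase of mitochondria, fell by 1.16 ± 0.15. For translation and RNA 5 rose and 3 fell of 45. mtrf1l (Xelaev18026735m), a release factor, rose by 3.26 ± 1.11, mrrf (Xelaev18038477m), the ribosome recycling factor, by 1.69 ± 0.52, and fastkd3 (Xelaev18031408m), of a family of mitochondrial RNA-binding proteins, fell by 1.27 ± 0.43. The total of mtrf1l, too, reached 150 counts, the smallest kept, only with its PGC counts. Of 17 gene models of other nuclear regulators, the 2 called were both esrra, a nuclear receptor that works with ppargc1a in mammals. Xelaev18022203m fell from 57.1 ± 4.24 to 12.0 ± 7.25 CPM (-2.25 ± 0.43) and Xelaev18024233m rose from 9.35 ± 6.47 to 41.5 ± 0.295 CPM (2.16 ± 0.51; SD, n = 3 each).

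In these lists the calls of mief2, letm1, pnpt1, lig3, optn (Xelaev18020929m) and both esrra gene models held in 14 of 14 alternatives. Those of mtx2, spg7, atad3a, mtrf1l, mrrf and fastkd3 were each lost when at least 1 library was left out, and grpel2 lost its call under offsets that follow expression level.

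Beside the members stood other large protein complexes. Of 54 gene models of cytosolic ribosomal proteins 0 rose and 43 fell, with a median log2 fold change of -1.17, against 1 and 3 of 58 and a median of 0.22 for mitochondrial ribosomal proteins. Of 81 gene models of nuclear-encoded oxidative phosphorylation subunits, which work beside the products of the mitochondrial ribosome, 2 rose and 10 fell with a median of -0.40. The counts behind these values differed, with a median of 81.6 CPM in the cytosolic ribosomal group and 12.5 CPM in the mitochondrial one, not corrected for transcript length, and the differences between these groups were not tested. Under total-count scaling and under offsets that follow expression level the medians were -0.85 and -1.03 for cytosolic ribosomal proteins, -0.08 and -0.65 for oxidative phosphorylation, and 0.53 and -0.24 for the mitochondrial ribosome.

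**Figure D5:**
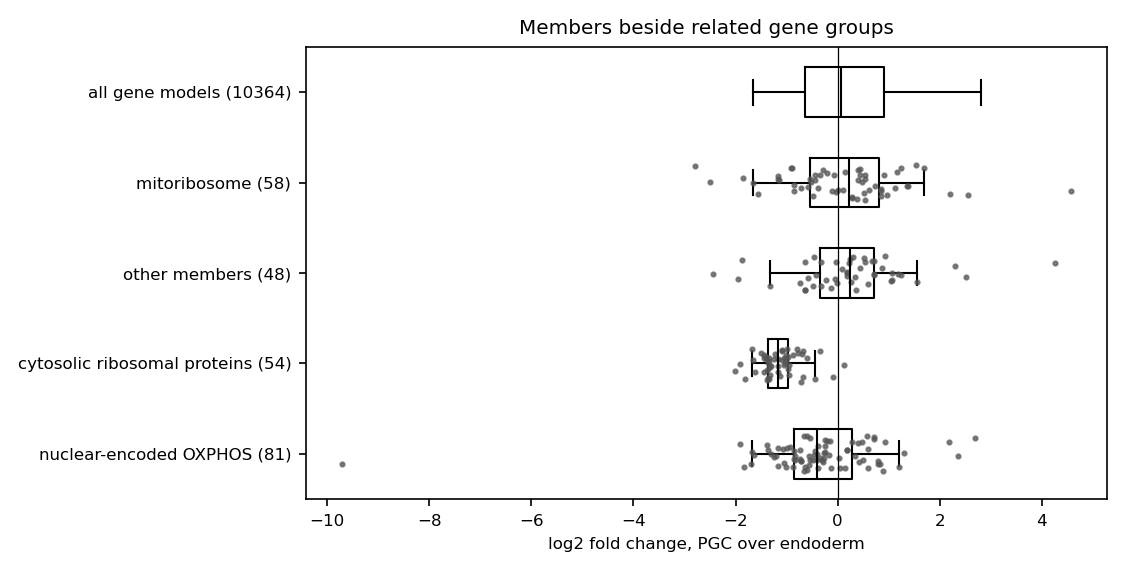
Distribution of log2 fold changes of PGC over endoderm (boxes span the quartiles with the median as a line, whiskers the 5th to 95th percentiles) for all gene models, the mitochondrial ribosome, the other members, the cytosolic ribosomal proteins and the nuclear-encoded oxidative phosphorylation genes (OXPHOS), with points for single gene models. The median is 0.22 for the mitochondrial ribosome with TMM scaling (-0.24 with offsets that follow expression level), -1.17 for cytosolic ribosomal proteins and -0.40 for oxidative phosphorylation, where 1 gene model lies at -9.71.

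As a share of all counts the members took 0.307, 0.304 and 0.316% in endoderm and 0.371, 0.356 and 0.362% in PGCs. The lowest PGC library lay above the highest endoderm library, with means of 0.309 ± 0.006% and 0.363 ± 0.00776% (SD, n = 3). Without the 10 most counted gene models of each library the means were 0.341 ± 0.00757% and 0.442 ± 0.00891%. The difference was then 0.101 in place of 0.0541 percentage points. The 10 were taken library by library, so the gene models left out can differ between PGC and endoderm libraries. This description has no test. The share of TIM genes was 0.0245 ± 0.00514% in endoderm and 0.0392 ± 0.00205% in PGCs, and that of prohibitins and matrix proteases 0.0201 ± 0.00237% and 0.0393 ± 0.00379%. The share of the large ribosomal subunit was 0.0604 ± 0.00404% in endoderm and 0.0657 ± 0.00417% in PGCs, with overlapping libraries, and that of nuclear regulators 0.0674 ± 0.00619% and 0.048 ± 0.00934%. These shares are not corrected for composition, and the genes counted most in a library take part of the same total.

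The authors' deposited table of the comparison gave an adjusted p under 0.05 for 17 of the 106 members, 10 higher and 7 lower in PGCs, and for 3417 of all gene models. It used a likelihood ratio test, and the same kind of test run here also gave 10 higher and 7 lower.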

How the data were processed

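The submitters' processing notes name edgeR 3.12.0, HTSeq 0.6.0, SAMtools 1.2, TopHat2 2.1.0 and Bowtie2 2.2.6 without roles. Apart from the tags v9.1 and v7.1, the sources used here do not state genome build, strand setting or treatment of reads with several matches. The deposited tables hold raw counts of reads for every gene model in each library, with no gene model under 150 counts over the 6 libraries. They also hold normalized signal values, which per the file headers belong to the same libraries. Per the file headers, the authors gave log2 fold changes and log2 mean levels, linear fold changes (a ratio in each direction), a likelihood ratio score, and p-values with adjusted p-values. Tests used the deposited counts alone, and 0 value columns of other samples were left out.

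The tests were run in R 4.3.3 with edgeR 4.0.16 (and limma 3.58.1): quasi-likelihood, TMM scaling, cell type as the term, two-sided, and p-values adjusted by Benjamini-Hochberg at 0.05. The filterByExpr step (min.count of 10, min.total.count of 15) removed 0 gene models. The standard error is the log2 fold change divided by the square root of the F statistic. The pair test was an interaction of gene model and cell type with library as a block, over symbols with exactly 2 gene models of at least 50 counts each. Both steps were run on simulated data with a small share of changed gene models, balanced between rises and falls, and the same dispersion for all. That setting is simpler than these data, so it does not measure how the tests perform here. Alternatives were DESeq2 size factors, total-count scaling, lowess offsets, the DESeq2 1.42.0 Wald test, a replicate block, other count filters, omission of each library in turn, counts summed by symbol and the v7.1 table; the likelihood ratio test was added after seeing the data. The depth of 9.94 to 28.3 M counts per library limits precision for low genes.

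The members, processes and lists were chosen with earlier results of these data known. Named were every member of a process with up to 12 gene models; in larger ones up to 6 called gene models per direction above a mean of 5 CPM and the 2 with the highest mean; up to 4 called pairs; and up to 3 called genes per other list. Other names were chosen after their values were seen. Of the 81 symbols, 78 were in the RefSeq gene table of Xenopus_laevis_v10.1, 32 of them with an L and an S gene; of the 56 symbols with 1 gene model, 10 had both there. Sequences are not shown, since no table of them was used here. Transcript lengths were not used, so CPM are not per length, and a mean CPM set beside that of another gene or group shows how many counts lay behind it, not its abundance. 1 of the endoderm marker genes is not reported here.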

Additional observations from a re-analysis of the deposited data

How the results depend on the processing

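Of the 11 called members, 8 kept their call in 14 of 14 refits of v9.1, and gabpa, mrpl14 and mrps17 lost it in at least 1. Outside these refits, v7.1 also called timm8b, polg, clpx and ppargc1a in the same direction. It did not call tomm70a or mrps18b (0.42 ± 0.64, edgeR adjusted p = 0.688), and had no gene model under the symbols mrpl44 and rhot2. Of 1482 member values, 8 lost a call, 35 gained 1 and 0 reversed 1. Most members had no call to lose, and the refit without a filter equals the main fit. The number of members higher in PGCs, 4 with TMM scaling and the quasi-likelihood test, was 13 under total-count scaling, 7 under lowess offsets, 10 by the DESeq2 Wald test, 10 by edgeR's likelihood ratio test (added after seeing the data; 1932, 1342, 1649 and 1561 of all gene models in these 4, against 1301), 8 with counts summed by symbol, and 3 to 9 when 1 library was left out (9 without endoderm replicate 1). The number lower, 7, was 3 in v7.1 and 5 to 7 with 1 library left out. Total-count scaling gave 1117 lower gene models in the whole table in place of 1739 and moved the median of all gene models from 0.07 to 0.39 and that of the members from 0.24 to 0.55. Other listed mitochondrial genes called higher, 16, were 29 under total-count scaling, 11 under lowess offsets and 7 to 16 with 1 library left out (7 without PGC replicate 1 or 3, 9 without endoderm replicate 3 or PGC replicate 2). Called member pairs, 3, were 1 to 3 (1 without PGC replicate 2). Without the 10 most counted gene models of each library the difference in the members' share of counts, 0.0541 percentage points, was 0.101. The causes of these shifts were not tested.

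With the replicate number as a block, 5 members were higher and 7 lower, and 27.7% of all gene models were called. Deviations of same-numbered PGC and endoderm libraries correlated at 0.00271, 0.0412 and 0.00779 over 5182 gene models, so the numbers were not taken to pair the libraries.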
